A study of Mus musculus with 4 samples.

Results

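The 52 genes described here encode the kinetochore, the spindle assembly checkpoint, the chromosomal passenger complex, mitotic kinases, the anaphase machinery, spindle proteins and the cytokinesis machinery, the parts with which a dividing cell holds, checks and separates its chromosomes and then cuts itself apart. They were chosen by name, with earlier results of these data known. A gene was read by the probe set that the array's annotation names for it alone. Where there were several, the brightest by the mean over all 4 arrays was used. By this rule 50 of the 52 were found among the 18193 genes measured. The other members, *Casc5* and *Sgol1*, are listed by the array's annotation as *Knl1* and *Sgo1* and are described separately.

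The values come from 4 Affymetrix mouse arrays of follicular helper CD4+ T (TFH) cells sorted from spleen on day 8 of an infection with the Armstrong strain of lymphocytic choriomeningitis virus (LCMV). The Rictor-null group holds 2 arrays, from *Rictor* fl/fl mice that also carry the *Cd4*-Cre transgene, and the WT group 2 arrays, from *Rictor* fl/fl littermates without it, so that the floxed alleles are shared by both groups. Rictor is the defining subunit of mTOR complex 2 (mTORC2), a kinase complex, and the question was how its loss alters TFH gene expression. The mice were young adults of both sexes, all infected; *Cd4*-Cre acts in developing T cells and deletes the gene in CD8+ as well as CD4+ T cells, so other cells around the TFH cells were altered too. Each array is labelled as a biological replicate, and the series description states that each sample was a pool of at least 5 mice, while a legend of the study gives other numbers. Differences are log2 fold changes of Rictor-null over WT on the scale log2(intensity + 16), which understates the change of dim genes, with standard errors and adjusted p-values from limma over all 18193 genes, called at 0.05.

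The kinetochore is the protein plate built on each centromere, where its inner part binds centromeric chromatin and its outer part grips spindle microtubules. Kinetochores without a proper grip keep the spindle assembly checkpoint on, which holds back the anaphase-promoting complex (APC/C) until every chromosome is attached. The APC/C then releases separase to part the sister chromatids, and the central spindle and contractile ring divide the cell. Most of these genes are transcribed in a burst from late S phase to mitosis, so that their mRNA is plentiful in dividing T cells and scarce in resting ones. Many of their promoters carry CCAAT boxes, bound by NF-Y, and a cell cycle genes homology region (CHR), bound by the DREAM complex in resting cells and by B-MYB and FOXM1 complexes in dividing ones.

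Because the members moved together, their promoters were read for these elements. The sequences are RefSeq's, for build GRCm38.p6, each from 250 bases before to 50 bases after an annotated start. Of the 50 measured members, 44 had at least 1 promoter there, with 50 promoters in all. The windows shown run from 100 bases before to 30 bases after the start, 5′ to 3′ on the gene's strand, and capitals mark the CHR core TTTGAA and the CCAAT box, of which a match on the other strand shows here as TTCAAA for the core and as ATTGG for the box. The first 7 belong to members that were higher in Rictor-null cells and the last 3 to members that did not pass the test, so that both kinds can be set side by side. They were picked for the matches they hold or lack, and counts over all members are given below.
Cdc20, chr4:118437314-118437443, minus strand: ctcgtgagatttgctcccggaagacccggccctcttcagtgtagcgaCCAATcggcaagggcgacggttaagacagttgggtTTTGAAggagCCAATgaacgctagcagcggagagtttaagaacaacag
Prc1, chr7:80294351-80294480, plus strand: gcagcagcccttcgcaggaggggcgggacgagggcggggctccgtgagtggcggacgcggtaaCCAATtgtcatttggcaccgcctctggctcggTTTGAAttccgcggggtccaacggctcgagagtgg
Ube2c, chr2:164769829-164769958, plus strand: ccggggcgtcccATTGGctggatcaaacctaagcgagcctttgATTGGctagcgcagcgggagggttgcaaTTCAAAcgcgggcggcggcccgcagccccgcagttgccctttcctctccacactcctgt
Cenpf, chr1:189688057-189688186, minus strand: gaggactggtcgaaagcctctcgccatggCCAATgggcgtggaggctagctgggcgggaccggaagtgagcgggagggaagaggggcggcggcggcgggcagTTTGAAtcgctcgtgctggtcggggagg
Spc25, chr2:69206184-69206313, minus strand: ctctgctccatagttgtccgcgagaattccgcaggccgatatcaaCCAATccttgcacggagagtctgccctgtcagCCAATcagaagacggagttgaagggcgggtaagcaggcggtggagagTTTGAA
Cep55, chr19:38054884-38055013, plus strand: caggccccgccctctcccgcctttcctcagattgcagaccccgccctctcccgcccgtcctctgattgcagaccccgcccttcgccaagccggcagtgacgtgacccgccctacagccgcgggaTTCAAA
Mad2l1, chr6:66535121-66535250, plus strand: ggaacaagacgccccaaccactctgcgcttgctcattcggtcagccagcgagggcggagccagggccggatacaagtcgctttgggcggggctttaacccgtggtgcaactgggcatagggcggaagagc
Bub3, chr7:131560270-131560399, plus strand: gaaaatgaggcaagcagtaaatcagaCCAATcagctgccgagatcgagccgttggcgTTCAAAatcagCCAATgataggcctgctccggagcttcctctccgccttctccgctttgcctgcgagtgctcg
Mis12, chr11:71019511-71019640, plus strand: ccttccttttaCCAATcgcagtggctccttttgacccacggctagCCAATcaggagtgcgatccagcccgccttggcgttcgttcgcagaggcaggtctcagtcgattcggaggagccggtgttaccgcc
Espl1, chr15:102296193-102296322, plus strand: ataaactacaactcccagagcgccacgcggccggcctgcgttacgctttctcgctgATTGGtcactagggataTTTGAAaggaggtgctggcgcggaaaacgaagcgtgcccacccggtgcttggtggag

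*Cdc20*, *Prc1*, *Ube2c*, *Cenpf* and *Spc25* hold a CHR core and at least 1 CCAAT box within this window, and so do *Bub3* and *Espl1*, which did not pass. *Cep55* holds a CHR core without a CCAAT box, *Mis12* holds CCAAT boxes without a CHR core, and *Mad2l1*, which was higher, holds neither. Over the whole windows of 300 bases and both strands, the CHR core lay in 29 of 50 member promoters (58%), against 17.9% of all 32851 promoters in the table and 13.4% of the 18009 promoters of genes on the array. Counted by gene, 25 of 44 members held it in at least 1 promoter (56.8%), against 15.7% of the genes on the array. A CCAAT box lay in 74% of member promoters against 37.4% of those of genes on the array, and both elements in 50% against 5.23%. GCGGGAA, a core bound by E2F factors, lay in 12% of member promoters against 6.72%. It lay in 3 of 41 promoters of members that were higher and in 3 of 9 of members that did not pass. Only 1 CHR match overlapped a CCAAT match.

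The matches gathered near the start. Of 33 CHR matches, 28 began within 50 bases of the start, at a median of base 6 after it, and 70 of 77 CCAAT matches began before the start, at a median of base -57. Matches were counted in each promoter, so that a site in overlapping promoters of a gene, as in *Prc1*, *Ect2* and *Bub3*, counts more than once. A CHR core within 50 bases of the start was found in 52% of member promoters and in 3.43% of the promoters of genes on the array. Members that were higher in Rictor-null cells and members that did not pass held the CHR core in 21 of 36 and in 4 of 8 genes. For the CCAAT box it was 25 of 36 and 7 of 8 genes. These are matches of letters in genes picked for their role in mitosis, not evidence of binding, and the base composition of the promoters was not matched.

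**Figure D1:**
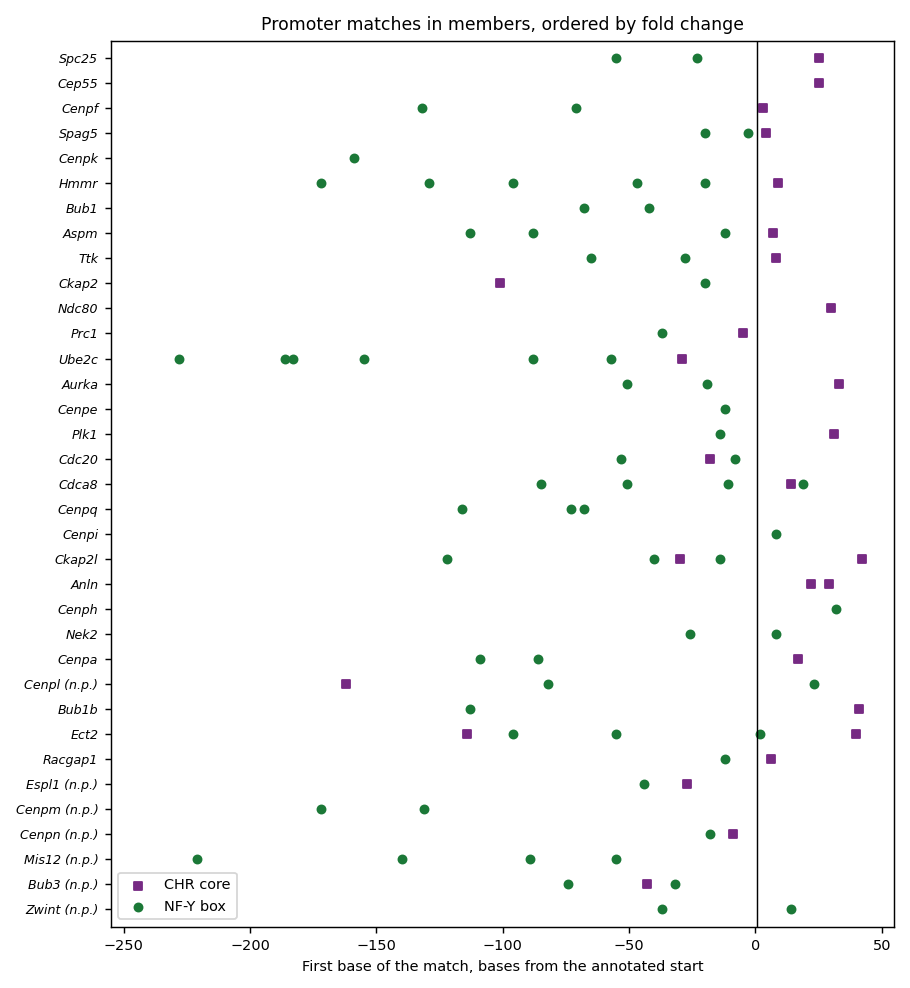
Position of CHR core matches (squares) and NF-Y box matches (circles) in the first listed promoter of each of the 35 members with a match there; the x axis gives bases from the annotated start (vertical line), and genes are ordered by log2 fold change from the highest at the top. The squares gather near the start and the circles mostly before it, also in members that did not pass the test (n.p.).

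The members were higher in Rictor-null TFH cells. Of 50 measured, 41 passed the test as higher (limma, adjusted p under 0.05), 0 passed as lower and 9 did not pass, while 12.5% of all genes were called higher, 7.19% lower and 19.7% in either direction. At an unadjusted p under 0.05 limma gave 46 members higher and 0 lower, against 18% and 12% of all genes, and the methods' t-test also gave 0 lower. The median log2 fold change was 0.49 over the members and 0.01 over all genes. The members' median intensity was 104 and 107 on the Rictor-null arrays and 69.9 and 69.7 on the WT arrays. In bulk samples a larger share of dividing cells and more of these mRNAs per cell cannot be told apart.

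The members differed less between replicates than between genotypes. Between replicates the median absolute log2 difference of the members was 0.10 in the Rictor-null group and 0.07 in the WT group, somewhat wider than the 0.05 and 0.06 of all genes, and 27 and 26 of the 50 were higher on the first array. Each of the 4 pairings of a Rictor-null with a WT array gave a median absolute difference between 0.48 and 0.52, with 49 or 50 of the 50 higher on the Rictor-null array, against 0.08 to 0.09 over all genes. For 48 of 50 members both Rictor-null arrays lay above both WT arrays, which held for 30.6% of all genes, and for 0 members did both lie below, which held for 24.9%. The members whose groups overlapped were *Zwint* and *Incenp*.

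**Figure D2:**
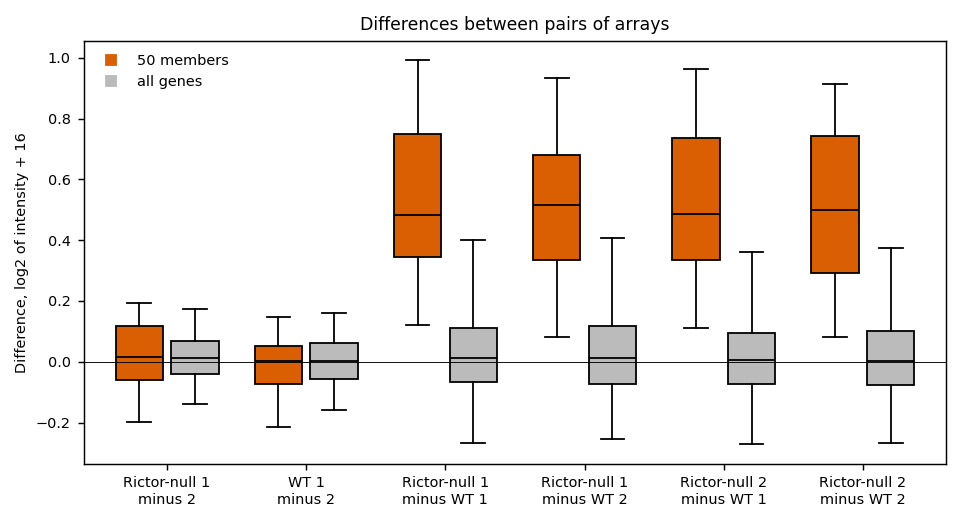
Differences in log2(intensity + 16) between pairs of arrays, for the 50 members (orange) and all 18193 genes (grey); boxes span the quartiles with the median as a line, and whiskers run from the 5th to the 95th percentile. The members' boxes straddle 0 between replicates, and their medians lie between 0.48 and 0.52 in all 4 comparisons across genotypes.

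Of the 41 called members, 17 were higher by at least 1.5-fold on the log2(intensity + 16) scale, which 1.27% of all genes reached with a call. By the ratio of mean intensities, which does not shrink dim genes, 26 reached 1.5-fold, against 2.24% of all genes, with 2.25 in *Cenpp*, 2.21 in *Cenpf* and 2.18 in *Spag5*. On the log2 scale 30 of the 50 stood among the 500 genes with the highest fold change. The highest values, between 0.89 and 0.99, belonged to *Spc25*, *Cep55*, *Nusap1*, *Cenpf* and *Shcbp1*. *Cenpi* was the 1 member whose mean lay under the median intensity of all probe sets in a group.

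**Figure D3:**
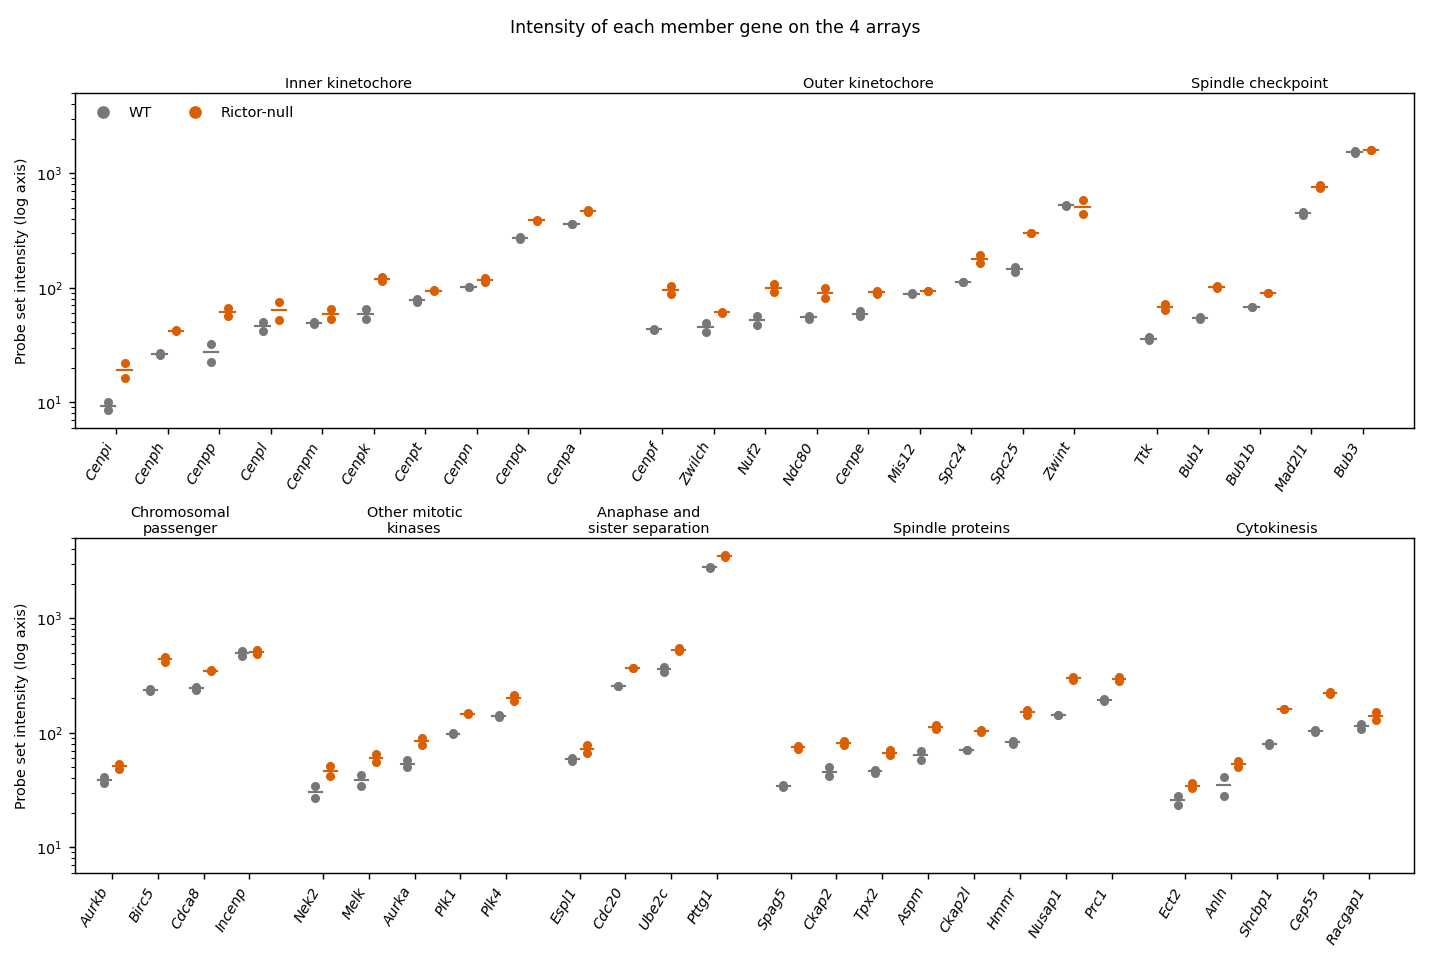
Probe set intensity (log axis) of each of the 50 members on the 4 arrays, grouped by role; points are single arrays, short lines the group means, WT in grey and Rictor-null in orange. In 48 genes both orange points lie above both grey points; in *Zwint* and *Incenp* they overlap.

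At the inner kinetochore, 6 of 10 members rose, with a median log2 fold change of 0.41. *Cenpa*, the histone H3 variant that marks centromeres, rose by 0.36 ± 0.05 (limma adjusted p = 0.00048), although a dimmer probe set named for it, at 64.5 and 59.4 in Rictor-null and 96.1 and 85.7 in WT cells, was lower. The others that rose belong to the constitutive centromere-associated network, which sits on CENP-A chromatin. *Cenpk* stood at 113.9 and 123 in Rictor-null against 53.0 and 65.1 in WT cells, a log2 difference of 0.85 ± 0.09 (standard error; limma adjusted p = 4.65e-05). *Cenpq*, at 388 and 385 against 266 and 279, rose by 0.48. In both genes the groups were well apart. *Cenpp* rose by 0.84, *Cenpi* by 0.48 and *Cenph* by 0.46.

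The remaining inner kinetochore members did not pass, though all were higher by their means with the groups apart. *Cenpt*, which links centromeric DNA to the outer kinetochore, read 92.7 and 95.6 in Rictor-null and 75.4 and 79.7 in WT cells (log2 fold change 0.24, adjusted p = 0.0522 from limma). *Cenpl* read 52.4 and 75.1 against 41.8 and 50.5 (0.35, adjusted p = 0.0696), with the wider spread in the Rictor-null arrays. *Cenpm* read 65.2 and 53.2 against 48.1 and 49.7 (0.21). *Cenpn*, which recognises CENP-A nucleosomes, read 121 and 113 against 101 and 102 (0.18). For *Cenpm* the lower Rictor-null array lay only just above the WT arrays.

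At the outer kinetochore, 7 of 9 members rose, with a median of 0.58. All 4 subunits of the NDC80 complex, the main microtubule grip of the kinetochore, were among them. *Spc25* read 303 and 303 in Rictor-null and 138 and 151 in WT cells, a log2 difference of 0.99 ± 0.07 (standard error; limma adjusted p = 1.15e-06). *Nuf2* rose by 0.77, *Spc24* by 0.60 and *Ndc80* by 0.58, so that the 4 values ran from 0.58 to 0.99. *Cenpf*, a large fibrous protein of the outer plate, read 103 and 88.6 against 43.9 and 42.8 (0.91). *Cenpe*, the kinetochore's motor, rose by 0.51, and *Zwilch*, a subunit of the complex that brings dynein to kinetochores, by 0.33.

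*Mis12* and *Zwint*, which belong to the platform that carries the NDC80 complex, did not pass. *Mis12* read 93.2 and 93.3 in Rictor-null and 90.7 and 87.3 in WT cells, a log2 fold change of 0.06 (standard error 0.08). *Zwint* read 441 and 583 against 517 and 532 (-0.05, standard error 0.09), with the Rictor-null arrays on either side of the WT arrays. *Zwint* has 7 probe sets, and their log2 fold changes ran from -0.16 to 0.41. One of the other bright ones, at 278 and 249.7 against 201 and 187, passed the test as higher (0.41, adjusted p = 0.0045 from limma over all probe sets). *Knl1*, a kinetochore scaffold that was listed as *Casc5*, read 89.2 and 89.9 against 67.9 and 55.7 and rose by 0.44.

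Of the 5 spindle checkpoint genes, 4 rose, with a median of 0.69. *Mad2l1* encodes MAD2, the protein that captures CDC20 while kinetochores are unattached. It read 783 and 748 in Rictor-null and 458 and 433 in WT cells, a log2 difference of 0.76 ± 0.05 (standard error; limma adjusted p = 1.87e-06). *Bub1*, a kinase that recruits checkpoint proteins, read 104 and 100.4 against 53.2 and 55.9 (0.75). *Ttk*, the kinase MPS1 that starts checkpoint signalling, rose by 0.69, and *Bub1b*, the pseudokinase BUBR1, by 0.34. *Bub3*, the partner of both BUB1 and BUBR1, read 1603 and 1581 against 1555 and 1511, a log2 difference of 0.05 ± 0.04 (standard error; limma adjusted p = 0.464) that did not pass. The promoter of *Bub3* shown above holds a CHR core between a pair of CCAAT boxes.

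The chromosomal passenger complex corrects faulty attachments and later directs cytokinesis, and 3 of its 4 members rose. *Birc5*, which encodes survivin, read 458 and 419 in Rictor-null and 243 and 233 in WT cells, a log2 difference of 0.84 ± 0.06 (standard error; limma adjusted p = 2.61e-06). *Cdca8*, which encodes borealin, read 346 and 353 against 252 and 237 (0.49). *Aurkb*, the kinase of the complex, rose by 0.29 (adjusted p = 0.0369), close to the threshold. *Incenp*, the scaffold that holds the kinase, read 531 and 488 against 473 and 517, and its groups overlapped (0.04, standard error 0.06). Its 5 probe sets lay between -0.02 and 0.04, so that within this complex survivin and borealin were higher and a change in *Incenp* was not detected.

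All 5 other mitotic kinases rose, with a median of 0.48. *Plk1*, which acts from centrosome maturation to abscission, read 146 and 147 in Rictor-null and 100.1 and 96.8 in WT cells, a log2 difference of 0.51 ± 0.07 (standard error; limma adjusted p = 0.000257). *Plk4*, the kinase that starts centriole duplication, read 215 and 190.1 against 144 and 138 (0.47). *Aurka*, the spindle pole kinase, rose by 0.52, *Melk* by 0.48 and *Nek2*, which separates centrosomes, by 0.42. The call of *Nek2* depended on the probe set: with the mean of its probe sets the log2 difference was 0.14 (limma adjusted p = 0.064).

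Of the 4 measured genes of anaphase and sister separation, 3 rose. *Cdc20*, the APC/C activator that MAD2 holds back, read 366.3 on both Rictor-null arrays, against 256 and 255 in WT cells, a log2 difference of 0.49 ± 0.06 (standard error; limma adjusted p = 5.86e-05). *Ube2c*, the ubiquitin-conjugating enzyme of the APC/C, read 546 and 518 against 377 and 339 (0.55). *Pttg1*, which encodes securin, the inhibitor of separase, rose by 0.34. *Espl1*, separase itself, read 78.0 and 67.2 against 60.8 and 57.2 and did not pass (0.24, adjusted p = 0.0846). *Sgo1*, listed as *Sgol1*, encodes shugoshin, which guards centromeric cohesin from early release. It read 72.4 and 71.3 against 36.6 and 40.3 and rose by 0.69. With *Knl1* and *Sgo1*, 43 of 52 genes were called higher.

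All 8 spindle proteins rose, with a median of 0.67. *Nusap1*, which bundles microtubules near chromatin, read 289 and 309 in Rictor-null and 144 and 144 in WT cells, a log2 difference of 0.98 ± 0.06 (standard error; limma adjusted p = 1.11e-06). *Spag5*, which encodes astrin, read 76.0 and 72.8 against 34.9 and 33.4 (0.85). *Hmmr* rose by 0.76, *Aspm*, a spindle pole protein, by 0.70 and *Ckap2* by 0.65. *Prc1*, the protein that crosslinks antiparallel microtubules in the central spindle, rose by 0.57, *Ckap2l* by 0.47 and *Tpx2*, the activator of Aurora A, by 0.42. The groups were apart in all 8 genes.

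All 5 cytokinesis genes rose, with a median of 0.46 and a wide range. *Cep55*, which brings the abscission machinery to the midbody, read 227 and 218 in Rictor-null and 106 and 102 in WT cells, a log2 difference of 0.99 ± 0.07 (standard error; limma adjusted p = 1.57e-06). *Shcbp1*, a midbody protein, read 161 and 162 against 80.9 and 78.5 (0.89). *Anln*, the ring scaffold anillin, rose by 0.46, a call that ended without WT replicate 1 (0.27, limma adjusted p = 0.17), without Rictor-null replicate 1 (0.39, adjusted p = 0.087) and with the mean of its probe sets (0.23, adjusted p = 0.06). *Ect2* and *Racgap1*, which together switch on RhoA at the cell equator, rose by 0.28 (adjusted p = 0.0338 from limma) and 0.27 (adjusted p = 0.0363). Those of *Aurkb*, *Ect2* and *Racgap1* were the values closest to the threshold among the called members.

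**Figure D4:**
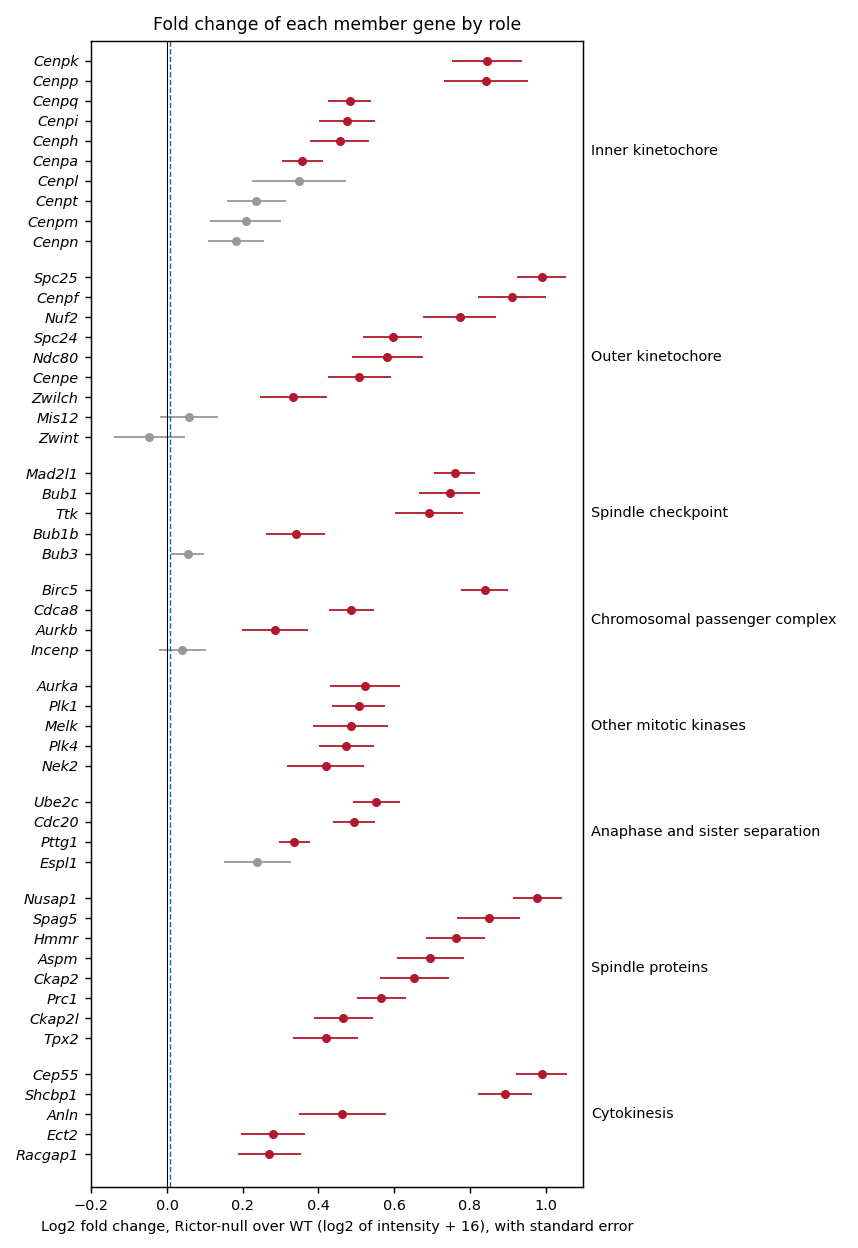
Log2 fold change of each of the 50 members by role, Rictor-null over WT, with the standard error from limma as a bar; red points passed the test as higher, grey points did not pass, and the dashed line is the median of all genes at 0.01. Values run from -0.05 in *Zwint* to 0.99 in *Spc25*.

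The 30 members with several probe sets had 62 further ones. Of these, 46 were higher by the mean (51.1% of all probe sets were), 17 passed as higher (7.8% of all probe sets did) and 2 as lower, over all 34945 probe sets named for a single gene. The lower ones were the dimmer *Cenpa* probe set and the dimmest of *Zwint*. Among the 33 further probe sets at or above the median intensity, 27 were higher by the mean and 12 passed as higher. Adjusted over all probe sets, 38 of the 50 brightest passed. Where a gene's probe sets were averaged instead, 18 of the 41 called members fell below their value divided by 1.5, and 5 calls ended, those of *Cenpa*, *Aurkb*, *Nek2*, *Anln* and *Racgap1*.

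Other lists of cell division genes had lower medians than the members. Members and lists were chosen with earlier results of these data known, so that this contrast is a description and not a test. Of all genes, 12.5% were called higher and 7.19% lower. Of 23 further kinetochore and centromere genes, 12 rose and 0 fell, with a median of 0.23, among them *Cenpw* (0.86) and *Ska2* (0.59), which binds microtubules beside the NDC80 complex. The 14 APC/C subunits had a median of 0.16, and 6 rose, by 0.38 in *Cdc26* and 0.30 in *Anapc10*. Of 13 cohesin genes, 4 rose and 1, *Mau2*, fell, but 4 fell under median centring, under quantile normalization and with dim probe sets left out. Those that rose included *Cdca5* (0.72), which encodes the cohesin protector sororin, and *Esco2* (0.52), the acetyltransferase that makes cohesion in S phase. Of 8 condensin subunits 3 rose, with *Smc2* at 0.51. Of 12 centrosome duplication genes 4 rose, by 0.45 in *Stil*. Leaving out either WT array lowered the count that rose in each of these lists, and the calls over all genes as well.

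Parts of the contractile ring and the abscission machinery are used outside mitosis as well. Of 14 such genes, 0 passed as higher (5 at an unadjusted p under 0.05 from limma) and 4 fell, and their median was 0.05. *Myh9*, non-muscle myosin heavy chain, read 3752 and 3550 in Rictor-null and 5109 and 4889 in WT cells (-0.45), *Septin9* fell by 0.44 on the log2 scale, and *Rhoa* and *Pdcd6ip* were lower as well, by smaller amounts (-0.20 and -0.19). The ring genes counted as members, *Anln*, *Ect2* and *Racgap1*, had values from 0.27 to 0.46. Of 20 genes of replication licensing and forks, 10 rose and *Mcm6* fell, with a median of 0.27, and *Pcna*, the sliding clamp, rose by 0.35. Over all genes 12.5% were called higher and 7.19% lower. Leaving out either WT array lowered the counts of replication genes that rose and of ring genes that fell, and *Mcm6* lost its call. The calls over all genes were also fewer in these fits.

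**Figure D5:**
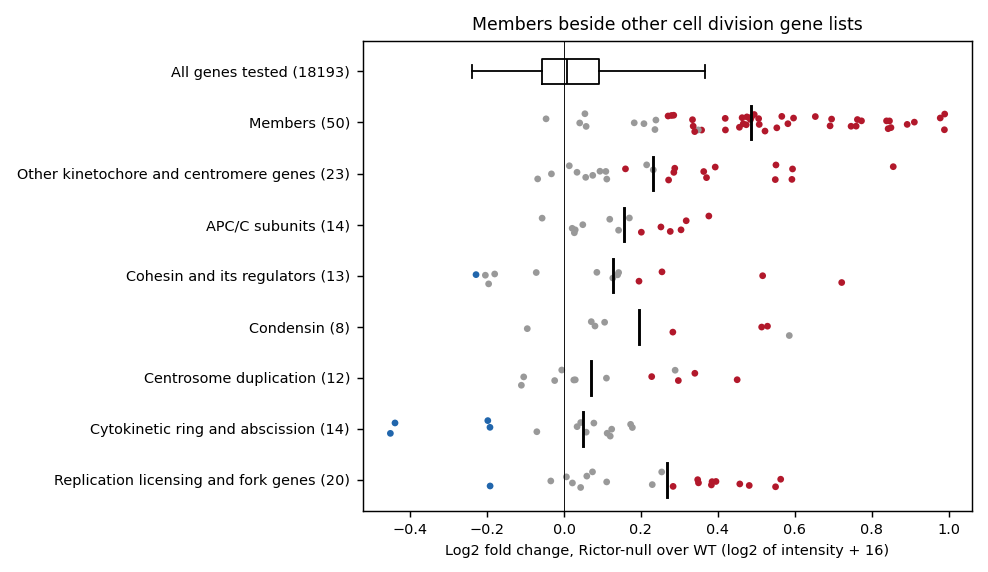
Log2 fold change of the 50 members and of 7 other cell division gene lists, beside all genes tested (box: quartiles and median, whiskers: 5th to 95th percentile); points are genes, red called higher, blue called lower, grey not passed, and black bars list medians, with small vertical scatter for legibility. The members' median is 0.49, that of the other lists 0.05 to 0.27. Members and lists were chosen with earlier results of these data known.

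Among reference genes of proliferation, *Mki67* read 788 and 821 in Rictor-null and 645 and 618 in WT cells (0.34), *Top2a* rose by 0.42, though not with the mean of its probe sets (0.17, limma adjusted p = 0.0559), and *Cdk1*, the mitotic kinase, read 271 and 249 against 125 and 130 (0.94). The study reported *Rictor* mRNA as undetectable in sorted Rictor-null TFH cells, and no induction of mTORC2 activity in stimulated Rictor-null CD4+ T cells. The exons that the probe sets of *Rictor* cover are not given in the sources used here. On these arrays *Rictor* read 267 and 279 against 334 and 303 (-0.21, adjusted p = 0.0366 from limma). Among other settings, that call was lost with the other probe sets averaged in (log2 fold change -0.01) and without either WT array or Rictor-null replicate 1 (adjusted p from 0.0824 to 0.297 from limma).

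The sort was checked against markers. All 12 TFH markers lay above the median intensity of all probe sets, *Cd3e* at 1143 and 1285 in Rictor-null and 1562 and 1468 in WT cells and *Cd4* at 363 and 343 against 456 and 399, and 9 of the 12 were lower in Rictor-null cells, with *Il21* at 387 and 383 against 746 and 715. Some markers of other cells were higher in Rictor-null cells, while most did not pass the test, and a few genes carried the sums. Of all genes, 12.5% were called higher. Many of these markers were dim. Above the median intensity of all probe sets lay 3 of 12 B cell and plasma cell markers and 6 of 12 myeloid markers, and the scale understates changes in the others. Besides the genes given below, *Mzb1* (0.88), *Lyz2* (0.77) and *Itgam* (0.64) rose. Summed over 12 B cell and plasma cell markers the intensity was 681 to 732 in Rictor-null and 390.2 to 396.5 in WT cells, and 4 of the 12 rose while 8 did not pass, led by *Jchain* at 378 and 353 against 126 and 113, while *Ms4a1*, which defines B cells, read 8.50 and 7.91 against 9.06 and 9.26. Of 12 myeloid markers 4 rose while 8 did not pass, led by *Fcgr3* at 108 and 81.4 against 30.4 and 29.5. *Csf1r* read 36.4 and 30.8 against 28.3 and 25.6. Over these 12 the summed intensity was 504 to 572 against 366 to 386. Over 4 CD8+ T and NK cell markers it was 163 to 179 against 124 to 131, with *Cd8b1* at 139 and 123 against 90.1 and 82.2 the 1 that rose, *Cd8a* at 23.7 and 25.2 against 24.7 and 24.0 and *Ncr1* at 10.1 and 10.1 against 10.8 and 12.6, and over 6 erythroid markers 85.9 to 90.3 against 75.9 to 78.5, with *Alas2* the 1 that rose. Of 10 TH1 markers 7 rose, by 0.57 in *Id2*, and 1, *Cxcr3*, fell (-0.19, limma adjusted p = 0.0493), and of 6 regulatory T cell markers 2 rose and 1, *Ikzf2*, fell. The part of these cells in the members' values was not tested.

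With 2 arrays a group the precision rests on few samples. Leaving out any 1 array lowered the count of members called higher, and the calls over all genes as well. The log2 fold change of *Zwint* was -0.24 without Rictor-null replicate 2. *Aurkb*, *Bub1b*, *Ect2*, *Nek2*, *Racgap1* and *Tpx2* lost their call without either WT array. *Anln*, *Cenpi* and *Zwilch* lost it without WT replicate 1, and *Aurka*, *Melk* and *Ndc80* without WT replicate 2. Calls of *Aurkb*, *Ect2* and *Zwilch* also ended without either Rictor-null array, those of *Anln* and *Nek2* without Rictor-null replicate 1 and that of *Racgap1* without Rictor-null replicate 2.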

How the data were processed

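Groups and replicate numbers were taken from the sample labels. The deposited values are probe set intensities on a linear scale, already scaled between arrays by the authors (array medians 20.0 to 20.4); MAS5 and RMA are both named per the labels, without a role for either. Of 45037 probe sets, 34945 have 1 gene symbol, 932 several and 9160 none. Each gene was read by its brightest probe set with 1 symbol, and log2(intensity + 16) was fitted with limma 3.58.1 in R 4.3.3 (trend, Benjamini-Hochberg over 18193 genes). The number of arrays limits the precision. The members and gene lists were chosen with earlier results of these data known. Values are given array by array for the 2 members of each role with the smallest p and for members that did not pass. Of each other list up to 3 genes with the smallest p are named. *Mau2*, *Mcm6*, *Pdcd6ip*, *Cd4*, *Cd3e*, *Ms4a1*, *Pax5*, *Csf1r*, *Ncr1*, *Cxcr3* and *Cd8a* were named after their values were seen. Ccnb1, a planned reference gene, has no probe set named for it alone. The labels do not say whether replicate numbers pair the arrays, and no shared shift of same-numbered arrays was seen. The fit was tested on simulated data. The alternatives were other scalings, pseudocounts, probe set rules and tests, the replicate block and each array left out; counting *Knl1* and *Sgo1* and the fold by linear means were added after seeing the data.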

Additional observations from a re-analysis of the deposited data

How the results depend on the processing

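Between 38 and 43 members were called higher under median centring, quantile normalization, dim probe sets left out, a pseudocount of 1, the mean of all probe sets, all probe sets tested together, eBayes without trend and the replicate block, and 32 to 37 with 1 array left out. The methods' t-test, one-tailed in the direction seen and so looser than a two-sided test, gave 40 members higher unadjusted. By that test 5374 of all genes were called in either direction. After Benjamini-Hochberg adjustment it gave 1 member, and 6 of all genes in place of the 3591 of limma. The cause was not tested. With 1 array left out, 1424 to 3016 of all genes were called, from 0 to 1 members were called lower (*Zwint* without Rictor-null replicate 2, log2 fold change -0.24), and the members' median ran from 0.48 to 0.51. That median was 0.47 under median centring, 0.46 under quantile normalization, 0.59 with a pseudocount of 1, 0.40 with the mean of all probe sets and 0.60 as the log2 ratio of linear means. No shared shift of same-numbered arrays was seen (correlation of deviations -0.03 over all genes and 0.01 over members). The labels do not say whether these arrays were handled together. With the replicate block 42 members were called higher, 0 lower, and 3748 genes in all, with a members' median of 0.49. Signs turned in 3 members: *Cenpa* with the mean of all probe sets (-0.056), *Zwint* with that mean (0.10) and without Rictor-null replicate 1 (0.15), and *Incenp* without Rictor-null replicate 1 or WT replicate 1 (-0.018 and -0.022). *Cd8a* turned as well: -0.017 under median centring, -0.019 under quantile normalization, -0.018 with the mean of all probe sets, and -0.023 to 0.030 with 1 array left out (-0.0088 without WT replicate 2). Calls of *Racgap1*, *Aurkb*, *Ect2* and *Nek2* ended in 6 to 10 of the settings tried and that of *Anln* in 5, and *Cenpt*, at adjusted p = 0.0522 from limma, passed in 5.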
